A study of Mus musculus with 188 samples.

Results

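Olfactory receptor genes in mouse embryonic stem cells (mESCs) lie mostly in large clusters, and 10 intervals over such clusters were followed through S phase in single cells. A 50 kb bin was a member if it lay in one of these intervals and carried a binarized replication state. There were 375 such bins of 49588 bins with a state in all, and 46743 of those were autosomal. A further 7 bins of the intervals carried no state, which is 1.83% of the interval bins against 5.12% of the autosomal bins. Of the members, 347 also had a smoothed score in 50% or more of the cells in both lines and were used, out of 45112 autosomal bins used. The other 28 members, 7.47% against 3.49% of autosomal bins with a state, are left out of the values below.

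The cells came from H129-2, a haploid line of the 129 strain, and F121-9, a diploid hybrid line with one 129 and one Castaneus (cas) homologue of each autosome. Both lines were grown under serum-free 2i and LIF conditions, which hold mESCs in the naive state, and neither received a treatment. Nuclei were sorted by DNA content from S phase, amplified and sequenced, so that replicated DNA appears as a raised copy number within a cell. Values were matched to 75 of 86 labelled haploid and 63 of 96 labelled diploid S-phase cells, and the other cells, with 6 haploid G1 cells, were not analysed here. The labels give a well for each cell, with no plate, batch or culture named. Cells are therefore not replicates of a line, an SD is the spread over cells, and differences between the lines are given without a test. The state of the receptor genes themselves was not measured, because the assay reads DNA and not RNA. The authors had discarded cells with few reads, and the read number of each remaining cell is not in the values used here.

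Olfactory receptors are the largest gene family of mammals. They detect odorants in the nose, and each olfactory sensory neuron expresses one allele of one receptor gene, while all others stay silent. The genes are short, have a single coding exon and arose by local duplication, so that clusters are dense in receptors and repeats and poor in other genes. In olfactory neurons the silent clusters are packed as heterochromatin, and the factors Lhx2, Ldb1 and Ebf1 act on the enhancers that choose the active allele. In cells outside the nose the clusters are silent and are known as late or mid-late replicating DNA, and replication of the homologues of receptor genes at different times was an early observation on these loci.

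The intervals were checked against the annotation. Of 1407 annotated olfactory receptor genes and pseudogenes, 781 (55.5%) started inside them. A receptor gene overlapped 283 of the 347 used bins (81.6%), against 0.657% of the other autosomal bins. Of the remaining bins, 49 held another protein-coding gene only and 15 held neither.

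The sequence of these clusters is AT-rich, and windows at gene starts are shown because GC content was the sequence feature that ran most closely with replication time below. Each run is RefSeq sequence of GRCm38.p6 from 250 bases before to 50 bases after the annotated gene start, written 5′ to 3′, with every CG dinucleotide in capitals. For receptors annotated by their coding exon alone, that start is not the start of transcription. In the gene annotation used for timing, Olfr17 starts at chr7:107093220 and Olfr160 at chr9:37716250, both outside the windows shown, which are therefore not taken as promoters. Olfr17, the P2 receptor of axon guidance studies, lies in the earliest interval (chr7:107097217-107097516, plus strand). Olfr160, the M72 receptor, lies in the chromosome 9 interval (chr9:37712231-37712530, minus strand). Olfr393 lies in the latest bin of the chromosome 11 interval (chr11:73848074-73848373, minus strand), and Olfr1205 in the latest bin of all (chr2:88829507-88829806, plus strand). Gapdh, a glycolytic housekeeping gene outside the intervals, stands beside them for contrast (chr6:125165724-125166023, minus strand).
Olfr17: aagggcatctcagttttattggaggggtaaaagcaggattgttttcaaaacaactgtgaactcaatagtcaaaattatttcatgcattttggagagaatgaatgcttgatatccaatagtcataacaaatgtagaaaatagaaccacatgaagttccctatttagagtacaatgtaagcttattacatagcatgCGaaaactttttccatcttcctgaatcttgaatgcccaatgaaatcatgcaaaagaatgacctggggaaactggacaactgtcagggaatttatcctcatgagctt
Olfr160: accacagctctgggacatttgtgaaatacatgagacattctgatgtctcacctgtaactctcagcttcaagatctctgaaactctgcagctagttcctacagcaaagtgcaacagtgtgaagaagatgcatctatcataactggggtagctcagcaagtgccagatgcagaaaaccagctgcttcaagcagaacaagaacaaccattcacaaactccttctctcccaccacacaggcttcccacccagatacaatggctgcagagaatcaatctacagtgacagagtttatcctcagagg
Olfr393: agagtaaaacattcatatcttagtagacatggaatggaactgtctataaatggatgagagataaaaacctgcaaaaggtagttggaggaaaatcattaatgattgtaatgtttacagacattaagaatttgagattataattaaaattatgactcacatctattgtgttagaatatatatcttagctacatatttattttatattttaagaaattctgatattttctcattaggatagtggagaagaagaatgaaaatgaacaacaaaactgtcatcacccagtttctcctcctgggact
Olfr1205: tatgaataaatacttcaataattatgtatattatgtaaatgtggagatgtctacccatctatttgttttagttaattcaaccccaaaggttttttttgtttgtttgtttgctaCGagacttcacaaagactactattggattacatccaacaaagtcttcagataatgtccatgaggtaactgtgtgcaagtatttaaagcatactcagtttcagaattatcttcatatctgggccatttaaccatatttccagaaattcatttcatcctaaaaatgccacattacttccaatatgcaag
Gapdh: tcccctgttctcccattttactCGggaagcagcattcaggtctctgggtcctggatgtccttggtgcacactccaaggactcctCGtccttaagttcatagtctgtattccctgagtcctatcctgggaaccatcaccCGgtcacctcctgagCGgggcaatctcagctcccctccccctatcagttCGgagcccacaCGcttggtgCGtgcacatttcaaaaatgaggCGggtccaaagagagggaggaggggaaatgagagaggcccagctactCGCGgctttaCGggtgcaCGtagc

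The Olfr17 window held 1 CG dinucleotide, Olfr160 and Olfr393 held 0, Olfr1205 held 1 and Gapdh held 12. GC content was 35.7%, 46%, 29%, 31.3% and 56.7% in the same order. RefSeq windows matched 520 receptor genes inside the intervals, of which 198 (38.1%) had no CG dinucleotide and 1 (0.192%) had 10 or more. Among 26081 windows of genes of other families, 4.77% had no CG dinucleotide and 45.5% had 10 or more. The mean GC content was 33.9% ± 4.77 (SD over windows) for the receptors in the intervals and 54.3% ± 11 for the other genes.

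The first question was when in S phase the clusters were due to replicate. The scheduled time of a bin is its rank among all used autosomal bins in the averaged smoothed scores, scaled to an S phase of 10 h. The olfactory receptor bins were scheduled at 6.51 h ± 1.57 (SD, 347 bins), with a range of 2.01 to 9.05 h, whereas the other autosomal bins averaged 4.99 h by construction. Of the 347 bins, 282 (81.3%) were scheduled after 5 h, as are 50% of all autosomal bins. However, only 4 (1.15%) were scheduled after 9 h, as are 10% of all autosomal bins. On this schedule the clusters lay in mid-late S phase, between the earliest and the latest DNA.

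Bins with a receptor gene were later than bins of the same intervals without one, at 6.8 h ± 1.35 (283 bins) against 5.23 h ± 1.8 (64 bins). The 2 sets were not matched for distance from the edge of an interval. Neighbouring bins share reads through the authors' median smoothing over 15 windows, so bins are not independent measurements. On the schedule of the haploid cells alone the members averaged 6.24 h with 0 bins after 9 h, and on that of the diploid cells 6.83 h with 47 bins (13.5%) there. The number after 9 h thus turned on the line that made the schedule.

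The intervals ranged from 4.67 h on chromosome 7 to 7.58 h on distal chromosome 2. The earliest was chr7:106200001-108800000 with 74 receptor genes, at 4.67 h ± 1.39 (SD over 47 bins). Next came chr14:50000001-51200000 with 26 receptor genes, at 5.36 h ± 1.05, and chr11:73300001-74400000 with 44, at 5.83 h ± 0.878. On the schedule from both lines together, these intervals lay close to the middle of S phase. The order changed with the line that made the schedule. Chromosome 7 was at 4.22 h in haploid and 5.03 h in diploid cells, and chromosome 14 at 5.78 h and 4.85 h. Chromosome 11 was at 4.69 h and 6.94 h, and chromosome 1, among the latest below, at 7.61 h and 6.33 h.

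A middle group held chr10:128900001-130100000 at 6.31 h ± 1.02, proximal chromosome 2 (chr2:36200001-37300000) at 6.33 h ± 0.996, chr9:37600001-40200000 at 6.66 h ± 1.4 and chr19:12000001-14300000 at 6.70 h ± 1.54. The means of these neighbours in the order differed by far less than the spread of their bins. The latest were chr1:173500001-174400000 at 7.01 h ± 0.575, chr16:58600001-59600000 at 7.32 h ± 0.334 and distal chromosome 2 (chr2:85100001-90200000) at 7.58 h ± 1.33. On chromosome 1 only 5 of 13 used bins held a receptor gene, and these were at 5.99 to 6.97 h. Its bins without one, which held genes of the Ifi200 family, were at 7 to 7.69 h. Distal chromosome 2 is the largest of the clusters, with 281 receptor genes over 88 used bins, and leaving it out brought the mean of all members from 6.51 h to 6.14 h.

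Most intervals formed a late trough with earlier DNA on at least 1 side. The 0.5 Mb before distal chromosome 2 averaged 0.521 h, against 7.58 h inside. The chromosome 9 interval, at 6.66 h, lay between flanks of 2.47 h and 2.48 h. The chromosome 11 interval, at 5.83 h, lay between flanks of 1.55 h and 3.59 h. In 4 of 10 intervals the DNA on one side was later than the interval mean. These were chromosome 16 with 7.85 h after its interval, chromosome 1 with 7.29 h before, chromosome 7 with 5.93 h before and chromosome 14 with 5.65 h before.

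**Figure D1:**
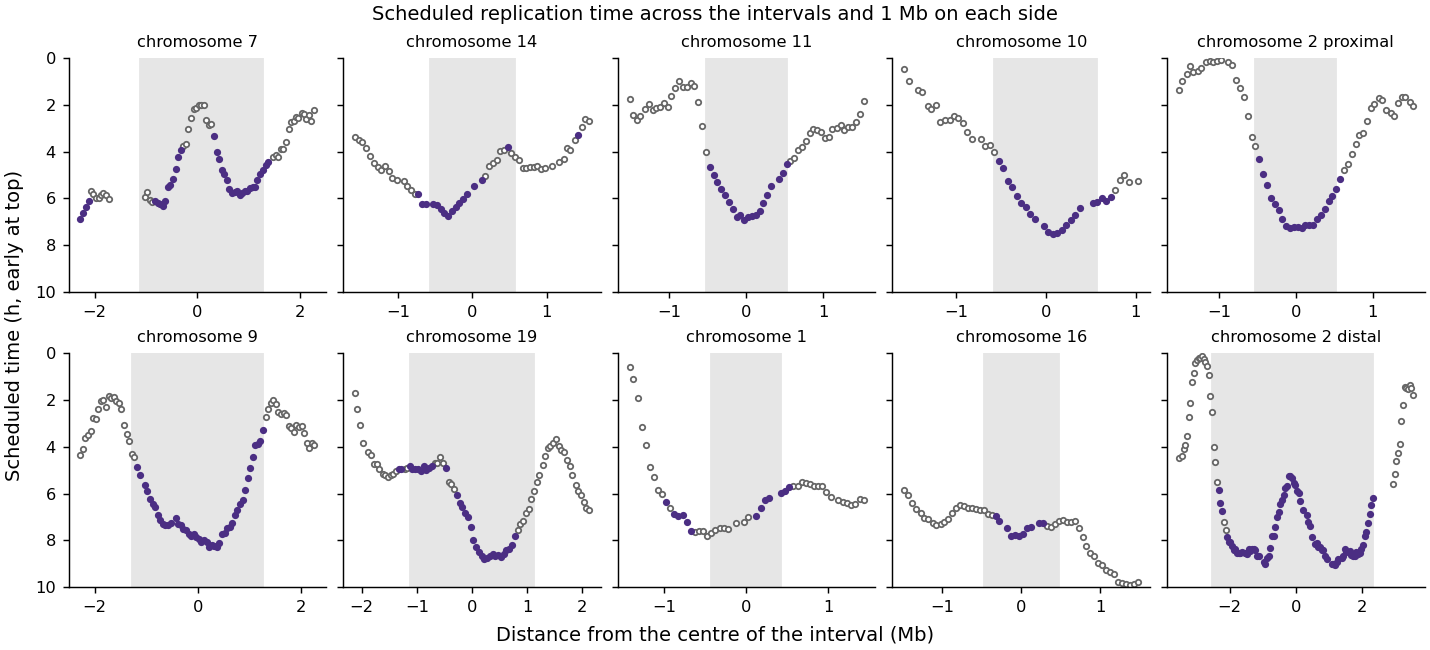
Scheduled time in hours (vertical axis, early at top) against distance in Mb from the centre of each interval, with 1 panel for each interval and grey over the members. Filled points are used 50 kb bins with an olfactory receptor gene and open points are bins without one, and distal chromosome 2 reaches 9.05 h while a stretch at its centre reaches 5.24 h.

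The earliest and latest bin of each interval were named by the genes they held. On proximal chromosome 2 the earliest bin (3.78 h) held Ptgs1, which encodes cyclooxygenase 1, and the latest (7.27 h) held Olfr3 and Olfr350. On distal chromosome 2 the earliest bin (2.53 h) held Aplnr, the apelin receptor gene, and the latest (9.05 h) held Olfr1202, Olfr1204 and Olfr1205. On chromosome 10 the earliest bin (4.03 h) held Cd63, a tetraspanin gene, with Rdh5, Bloc1s1 and Itga7, and the latest (7.51 h) held Olfr794. On chromosome 11 the earliest bin (4.03 h) held the cation channel gene Trpv3 with Aspa and Spata22, and the latest (6.92 h) held Olfr392 and Olfr393. In 9 of 10 intervals the earliest bin held a gene of another family. That share was not counted over all members, so no link with timing is read from it. On both chromosome 2 intervals and on chromosomes 1, 9, 10, 11 and 16 the earliest bin was the first or last of its interval. Gene content and position at the edge were not told apart. In 9 of 10 the latest bin held receptor genes, which is near the 81.6% of all used members that held one.

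Both exceptions were on chromosome 1. Its earliest bin (5.99 h) held only receptors, Olfr417, Olfr416-ps1 and Olfr248, and its latest (7.69 h) held Ifi214, of the interferon-inducible Ifi200 family. On chromosome 14 the earliest bin (3.8 h) held Olfr750 beside the ribonuclease genes Rnase4 and Ang, and the latest (6.74 h) held Olfr732 and Olfr733. On chromosome 9 the earliest bin (3.29 h) held Olfr986 beside Zfp202, and the latest (8.27 h) held Olfr27. On chromosome 16 the bins differed little, from 6.69 h to 7.83 h with Olfr190, Olfr191 and Olfr192 in the latest. On chromosome 19 the latest bin (8.79 h) held Olfr1467.

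Inside distal chromosome 2 and chromosome 7, the 2 intervals examined for this, an earlier stretch divided the receptors into separate late stretches. The other intervals were not searched for such a stretch. The bins given here were chosen after their values were seen. On distal chromosome 2 the bin chr2:87450001-87500000, with Olfr1126 and Pramel7, was scheduled at 5.24 h. Pramel7 is known from the inner cell mass and naive mESCs. The latest bins on either side of it were at 9.01 h (chr2:86700001-86750000, Olfr1089) and 9.05 h (chr2:88800001-88850000, Olfr1205). The earlier bin was replicated in 69.3% of the haploid cells, against 22.7% and 10.7% for the bins on either side. In the diploid cells the values were 50.8%, 1.59% and 1.59%.

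The same order was counted within single cells. The earlier bin alone had replicated in 35 of 75 haploid cells and in 31 of 63 diploid ones, and in 0 cells of either line were both later bins replicated without it. In 2 haploid and 0 diploid cells a single later bin was ahead of it. On chromosome 7 the earlier stretch was chr7:107600001-107650000 at 2.01 h, which held Ppfibp2, a liprin gene, and no receptor. Its later neighbours were at 6.32 h (Olfr700 to Olfr703) and 5.84 h (Olfr491 to Olfr493). The earlier bin alone had replicated in 14 haploid and 24 diploid cells, and neither later bin was ahead of it in any cell of either line. The bins were ranked on the same cells, so these counts describe the pattern and do not test it.

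The next question was how much of the clusters single cells had replicated. In haploid cells the olfactory receptor bins were 51.6% ± 25.6 replicated (SD, n = 75 cells; lowest 4.9%, median 51.3%, highest 100%), against 61.2% ± 16.9 for the other autosomal bins. In diploid cells the values were 31.4% ± 14.5 (SD, n = 63 cells; lowest 0.288%, median 31.7%, highest 94.5%) against 54.3% ± 9.54. The receptor bins were behind the rest of the autosomes in 58 of 75 haploid and 62 of 63 diploid cells. The mean difference was -9.61 percentage points (SD 11.4) in haploid and -22.9 points (SD 9.36) in diploid cells. The haploid value was -17 points with smoothed scores above 0 as states and -3.56 points without distal chromosome 2.

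The lines were sampled at different stages of S phase, since haploid cells had been sorted with wider gates. In mid-S cells, those with 40% to 60% of the other autosomal bins replicated, the receptor bins were 37.4% ± 11.2 replicated in 25 haploid cells and 28.7% ± 10.2 in 44 diploid cells. The other bins were 53.6% ± 4.91 and 53.4% ± 5.17 replicated in the same cells. The receptor bins were behind in 24 of 25 haploid and 44 of 44 diploid mid-S cells. Above 60%, the haploid receptor bins had reached 71.3% ± 15.7 against 74.4% ± 8.13 (n = 39 cells). The diploid receptor bins had reached 45.1% ± 16 against 63.5% ± 4.7 (n = 15 cells), but those diploid cells were less advanced.

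Single intervals differed widely between cells at mid-S. The chromosome 7 interval was 65.8% ± 20.5 replicated in haploid mid-S cells (lowest 27.7%, median 68.1%, highest 100%), and 54.6% ± 25.8 in diploid mid-S cells (lowest 10.6%, median 52.2%, highest 100%). Distal chromosome 2 was at 20.1% ± 15.6 (lowest 0%, median 17%, highest 60.2%) and 12.9% ± 10.5 (lowest 0%, median 10.8%, highest 47.7%). The ranges of these intervals overlapped, although few cells had replicated most of distal chromosome 2, namely 1 of 25 and 0 of 44. The chromosome 16 interval was wholly unreplicated in 15 of 25 haploid and 25 of 44 diploid mid-S cells and wholly replicated in 1 and 2. The chromosome 1 interval was wholly unreplicated in 16 and 15 of these cells, and wholly replicated in 0 and 5. The chromosome 16 interval was thus in a single state in most of these cells, which the heat map of cells shows as blocks of dark or yellow.

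**Figure D2:**
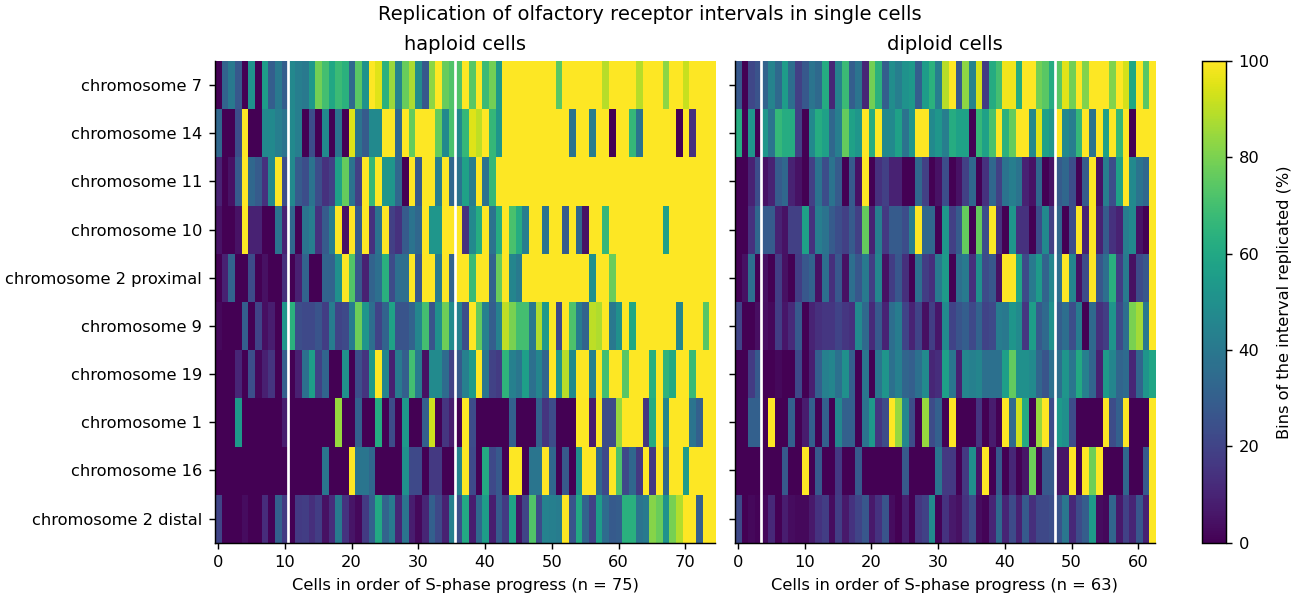
Percentage of the used bins of each interval that were replicated (colour) in each haploid and diploid cell (columns, in order of S-phase progress, with white lines at 40% and 60%), with intervals in order of scheduled time. Yellow begins early in the order of cells for chromosome 7 and late for distal chromosome 2, which 19 of 75 haploid cells and 2 of 63 diploid cells had mostly replicated.

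The order of the intervals was followed within cells by asking, for each of 45 pairs, which interval was mostly replicated while the other was not. The more frequent order of a pair accounted for 924 of 1136 such cases in haploid cells (81.3%) and 788 of 924 in diploid cells (85.3%). The more frequent order takes at least 50% of the cases by definition, and the cases of a cell share that cell. In haploid cells chromosome 7 was ahead of distal chromosome 2 in 40 cells and behind in 0, and in diploid cells in 36 and 0. Chromosome 7 was ahead of chromosome 19 in 27 haploid cells and behind in 0, and in 27 and 1 diploid cells. Other pairs were less ordered, such as chromosomes 1 and distal 2 in haploid cells, with 7 and 6. Chromosomes 11 and 14 changed their order between the lines, with chromosome 11 ahead in 13 haploid cells and behind in 7, but ahead in 1 diploid cell and behind in 40.

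The intervals did not advance or lag together to any large extent. The deviation of an interval is its percentage replicated in a cell minus that of other autosomal bins at the same scheduled time. For the 44 pairs of intervals on different chromosomes, the median Pearson correlation of deviations was 0.044 over 75 haploid cells, with a range of -0.294 to 0.334. Over 63 diploid cells the median was 0.0838, with a range of -0.263 to 0.319. Cells of a line share its schedule and are not replicates, so these values are a description.

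To compare the clusters with DNA of the same timing, the percentage replicated was read against hours past the scheduled time, with each cell left out of its own schedule. T_width, the time from 25% to 75% replicated on a fitted sigmoid, was 2.01 h for the olfactory receptor bins and 2.02 h for the other autosomal bins. By line it was 2.26 h against 2.04 h in haploid cells and 1.83 h against 1.97 h in diploid cells. No test of these differences was made. With smoothed scores above 0 in place of the binarized states, T_width of the receptor bins was 2.61 h. Single intervals ranged from 1.49 h on proximal chromosome 2 to 2.31 h on distal chromosome 2, leaving out chromosomes 1, 11 and 16, whose fits ran to plateaus above 100%. The chromosome 9 fit reached 101.9%.

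At the same scheduled time the haploid receptor bins were ahead of other bins by 5.58 percentage points (SD 8.57), in 55 of 75 cells, or by 1.73 points with smoothed scores above 0 as states. The diploid receptor bins were behind, at -1.85 points (SD 7.73), in 38 of 63 cells, or at -0.628 points without chromosome 11. With the schedule of the other line the values were 9.51 and -6.66 points. The schedule is shared by the lines and holds the members' own values in the other cells, so a lead in one line goes with a lag in the other. Shares beyond 1.5 h from schedule were also pooled, where other bins reached larger distances than the members. Of receptor bins due more than 1.5 h later, 8.32% were already replicated, against 5.38% of other bins, and of those overdue by more than 1.5 h, 6.9% were still unreplicated, against 4.54%. In haploid cells the early share was 11.5% against 5.47%, and in diploid cells it was 5.48% against 5.3%. The overdue share was 5.66% against 3.92% in haploid cells and 10.6% against 5.41% in diploid cells. These pooled shares therefore compare unlike distances. In both lines together, 93.2% of receptor bins were replicated at 2.05 h past schedule, against 89.9% of other bins. At 3.45 h past it the values were 93.2% against 96.6%. The lines differed in direction, with 94.5% against 89.7% in haploid cells at 2.05 h. In diploid cells it was 82.4% against 89.3% at 1.95 h, their last point for receptor bins. At 2.05 h before schedule the values were 13.2% against 9.58% in both lines together, and 6.77% against 9.43% in diploid cells.

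**Figure D3:**
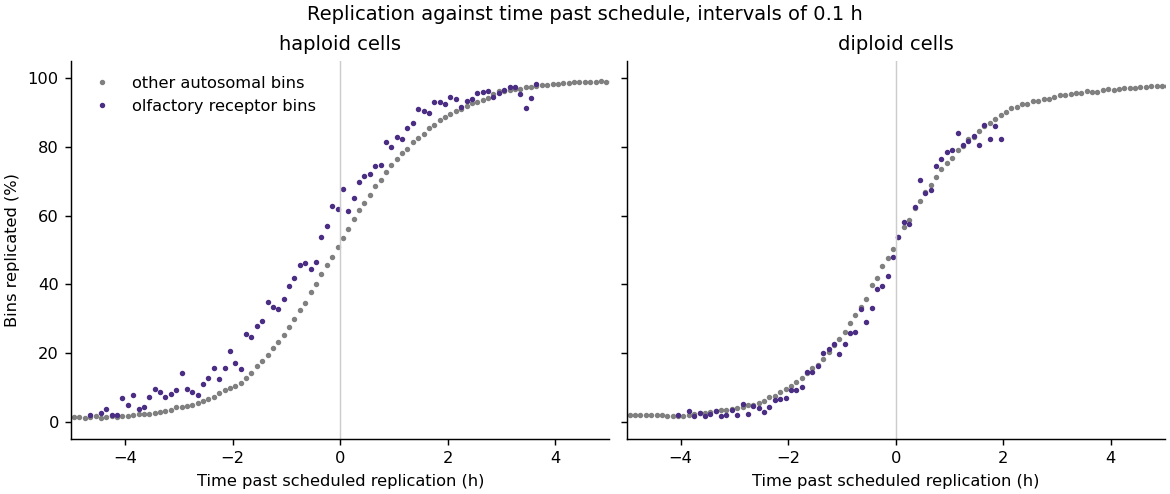
Percentage of bins replicated against hours past the scheduled time, in steps of 0.1 h, for olfactory receptor bins and other autosomal bins in haploid (left) and diploid (right) cells. The receptor points lie above the grey points in haploid cells up to 2.75 h (midpoints -0.52 h and -0.0678 h). Later they lie on both sides, with 91.3% against 97.4% at 3.45 h. In diploid cells they lie below the grey points from -1.05 h to -0.05 h, with 29% against 35.6% at -0.55 h. They are above at 0.45 h, with 70.3% against 64.3%, and below at 1.95 h, with 82.4% against 89.3%.

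The state changed more often along the intervals than over the other autosomal bins as a whole. Mid-S haploid cells had 0.757 ± 0.167 changes of state per Mb in the intervals, against 0.416 ± 0.0357 over the other autosomal bins, and the intervals were higher in 24 of 25 cells. Mid-S diploid cells had 0.709 ± 0.163 against 0.415 ± 0.0423, higher in 42 of 44 cells. The intervals include the slopes at their edges. The other bins were not matched for scheduled time, so whether other mid-late DNA changes state as often was not tested. Whole intervals in a single state made up 29.2% ± 11.9 of the 10 intervals in haploid and 20.9% ± 11.4 in diploid mid-S cells.

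The lines were then compared at matched progress, in classes of 5 percentage points of S phase. The smoothed score, on which a higher value is earlier, was 0.155 ± 0.174 (SD over bins) higher in haploid than in diploid cells for the receptor bins, against 0.0159 ± 0.193 for other bins. Haploid scores were higher at 290 of 347 members (83.6%), against 55% of other bins. This shift was smaller with chromosomes centred, and its cause was not tested. When each chromosome was centred on its median in each cell, the mean difference of the members was 0.00767 and 205 members (59.1%) were higher in haploid cells. The other bins then averaged -0.0423, and 39.9% of them were higher in haploid cells, so part of the gap between members and other bins remained.

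No member passed a difference of 0.5 in either direction, a limit that 0.474% of autosomal bins passed with haploid cells higher and 0.949% with diploid cells higher. At a limit of 0.3, 65 members (18.7%) were higher in haploid cells, against 6.16% of autosomal bins. Of these, 22 lay on chromosome 9 and 20 on chromosome 11. With diploid cells higher, 5 members (1.44%) passed, against 5.4% of autosomal bins, and 4 of them lay on chromosome 1. Classes with few cells went into this mean, and within mid-S cells alone 4 members passed 0.5 with haploid cells higher, against 0.902% of autosomal bins. With chromosomes centred, 2 members passed 0.5 with diploid cells higher, against 0.862%.

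The chromosome 11 cluster had the largest difference between the lines in scores as deposited, but not with chromosomes centred. Its score was 0.414 higher in haploid cells, and the score of the rest of chromosome 11 was 0.268 higher. With chromosomes centred, 0.079 of the difference in the interval was left. In mid-S cells the interval was 51.8% ± 32.2 replicated in haploid cells (lowest 0%, median 42.9%, highest 100%; n = 25) and 18.2% ± 18.7 in diploid cells (lowest 0%, median 14.3%, highest 100%; n = 44). The cells overlapped, but most of the interval was replicated in 11 haploid and in 1 diploid mid-S cell. Among cells of every stage, 56% of the 75 haploid ones had copied the latest bin of the interval, with Olfr392 and Olfr393. The share was 6.35% for the 63 diploid ones. These full sets were not matched for S-phase progress, which averaged 61.2% in the haploid set against 54.3% in the diploid set.

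The deviation of the chromosome 11 interval from other bins of the same timing was 14 points in haploid and -20.8 points in diploid cells. Over the rest of chromosome 11 it was 5.6 and -2.91 points. Plate rows, which each hold cells of 1 line, gave 4.74 to 23 points in the 8 haploid rows and -32.4 to -9.62 points in the 8 diploid rows, without overlap. Haploid row H held 1 cell. The row ranges overlapped for the other 9 intervals. Thus 1 of 10 intervals was apart with haploid cells higher, against 0.784% of 2040 autosomal windows of 22 used bins. For chromosome 10 the overlap rested on the 1 cell of haploid row H, at -12.5 points. Its other haploid rows gave 2.17 to 36 points, against -11.8 to -0.171 points in the diploid rows. Chromosomes that were aneuploid in a cell had been rescaled by the authors. The part of that rescaling, of any plate or batch and of ploidy in these differences between the lines cannot be told apart here.

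Chromosome 1 went the other way, with a score 0.284 lower in haploid cells (difference -0.284), or -0.2 with chromosomes centred. The rest of chromosome 1 differed by -0.0875. Its deviation was -8.91 points in haploid and 10.9 points in diploid cells, and the plate rows overlapped. The chromosome 9 interval differed by 0.27, or 0.0986 with chromosomes centred, and the chromosome 10 interval by 0.237, or 0.195. The scores of chromosomes 14 and 16 differed by -0.0428 and 0.0201. The intervals of distal chromosome 2 (0.145) and chromosome 19 (0.102) changed sign on centring, to -0.0129 and -0.15.

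**Figure D4:**
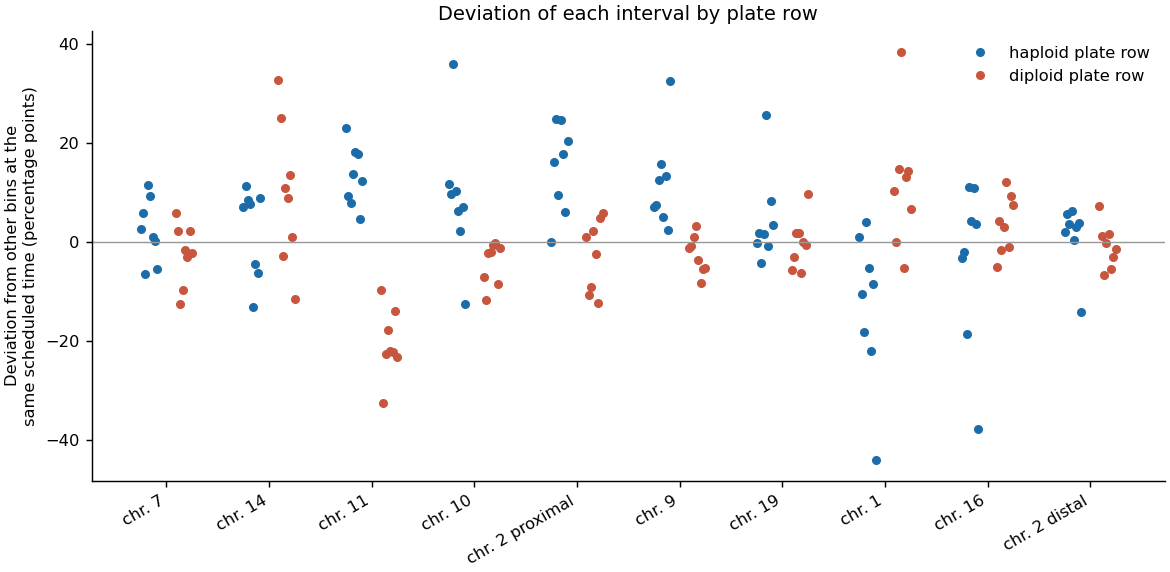
Deviation of each interval from other autosomal bins at the same scheduled time, in percentage points (vertical axis), as the mean of the cells in each plate row, for 8 haploid and 8 diploid rows. The rows of the lines separate for chromosome 11 (4.74 to 23 against -32.4 to -9.62) and overlap for the other 9 intervals. For chromosome 10 the overlap comes only from haploid row H, which is 1 cell (-12.5).

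Homologue asynchrony, in which one homologue of a diploid cell is replicated and the other is not, has been a central question for olfactory receptor loci. Asynchronous bins made up 0.686% ± 2.33 of the receptor bins per cell (SD, n = 63 cells; lowest 0%, median 0%, highest 12.1%) and 0.871% ± 1.59 of the other autosomal bins. The difference was -0.185 points with an SD of 2.27 over cells, below 0 in 39 cells and above 0 in 6. Only 7 cells held any asynchronous receptor bin, and in all others the difference could not be above 0. The mean difference became 0.0482 points when distal chromosome 2 was left out, and -0.364 points without diploid plate row H. At least 1 cell was asynchronous at 134 of 347 receptor bins (38.6%), against 40.4% of autosomal bins.

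The asynchronous receptor bins formed 11 stretches in 7 of 63 cells, 7 with the 129 homologue replicated and 4 with the Castaneus homologue. Plate row H, with 7 of the 63 cells, held 8 of the stretches in 5 cells. In that row 3.99% ± 4.05 of receptor bins and 2.75% ± 1.67 of other bins were asynchronous, against 0.273% ± 1.66 and 0.637% ± 1.43 in the 56 cells of the other rows. The part of the plate row in these calls was not tested. The longest covered 42 of 50 bins of the chromosome 9 interval in the cell of well B7, with the 129 homologue replicated. The next covered 30 of 47 bins of chromosome 7 in well H6, with Castaneus replicated, and 22 of 46 bins of chromosome 19 in well H4, with 129 replicated. On chromosome 14, 15 of 21 bins were asynchronous in well H3, with Castaneus replicated. Chromosome 1 was asynchronous over 9 bins in well H4 with 129 replicated, and over 7 bins in well G7 with Castaneus replicated. Cells G7, H3 and H4 each held stretches in both directions, on different chromosomes.

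No stretch covered a whole interval, and no receptor bin was asynchronous in more than 2 cells. The highest number over all used autosomal bins was 5 cells, but over 45112 bins rather than 347, and a larger set reaches a higher maximum by its size. None was seen on either chromosome 2 interval or on chromosome 11. The authors called asynchrony only for segments with at least 40 parsed reads, so a segment without enough reads over sequence variants carries the same state on both homologues by default. Read numbers per segment are not in these values. A low count of asynchronous bins therefore does not show that the homologues replicated together.

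The sequence of the bins was compared with their timing. Receptor bins had 38.7% ± 2.32 GC (SD over bins), against 42% ± 4.07 for other bins, and 45.8% ± 12 of their bases were masked as repeats, against 32.5% ± 11.5. Members scheduled from 6 to 7 h had 38.4% ± 1.3 GC and 48% ± 11.2 repeats (79 bins), whereas other bins of that time had 40.3% ± 2.04 and 34% ± 12.4. The members thus held less GC and more repeats than DNA of the same timing. Other bins scheduled after 5 h had 39.2% ± 2.41 GC, and those scheduled after 9 h had 37.1% ± 1.25.

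Within the intervals, GC content and scheduled time had a Pearson correlation of -0.716 and a Spearman correlation of -0.715 over 347 bins, against -0.788 and -0.81 over 44765 other bins. Over the 10 intervals the values were -0.715 and -0.745. Neighbouring bins share their surroundings, so no test is given. The members were earlier than other bins with as much GC. Other bins of like GC, in classes of 0.5 percentage points, averaged 7.07 h, against 6.51 h for the members, a difference of -0.567 h (SD 1.17 over bins). The chromosome 7 interval was 1.44 h earlier than bins of like GC (difference -1.44 h), and chromosome 9 differed by -1.01 h. Chromosome 16 was later by 0.943 h, and proximal chromosome 2 by 0.0102 h.

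**Figure D5:**
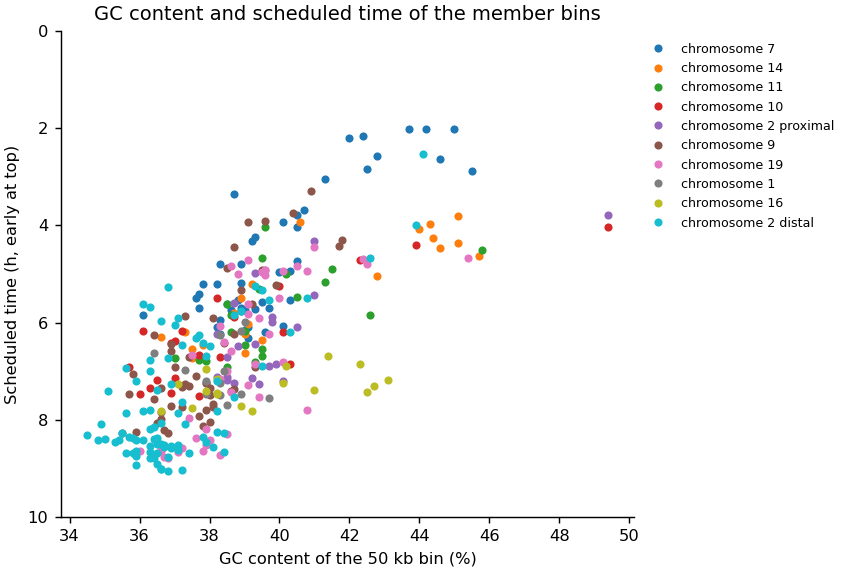
Scheduled time in hours (vertical axis, early at top) against GC content of each used member bin (horizontal axis, percent), coloured by interval. Bins of the chromosome 7 interval lie at the top right and those of distal chromosome 2 at the bottom left, with Pearson r = -0.716 over 347 bins.

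Receptors that have served as models of olfactory coding were spread over the schedule. Olfr17 (P2) was at 4.74 h and Olfr2 (I7) at 5.18 h, both on chromosome 7. Olfr151 (M71) and Olfr160 (M72) shared a bin of the chromosome 9 interval at 4.88 h, which 81.3% of haploid cells and 59.5% of diploid cells had replicated. Olfr73 (mOR-EG), on distal chromosome 2, was at 7.21 h, and its bin was replicated in 41.3% and 11.1%. Among receptors outside the intervals, Olfr16 (MOR23) was at 6.34 h, Olfr78, which is also expressed in the carotid body, at 5.35 h, Olfr1507 (MOR28) at 3.46 h and Olfr15 at 1.54 h. The earliest of these, Olfr15, had been replicated by 94.7% of haploid cells and 98.4% of diploid cells.

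Other chemoreceptor families were placed on the same schedule. The 598 receptor genes of the intervals in used bins had a median of 6.97 h, and 534 (89.3%) were scheduled after 5 h. All protein-coding genes (19345 in used bins) had a median of 2.52 h with 19.8% after 5 h. The 510 receptor genes outside had a median of 5.84 h with 57.6% after 5 h, and they ranged from 0.183 to 9.26 h. Their medians varied by chromosome, from 1.23 h for 1 gene on chromosome 5 and 1.63 h for 9 genes on chromosome 15 to 8.25 h for 38 genes on chromosome 2. The large set on chromosome 7 (186 genes) had a median of 7.21 h, later than the chromosome 7 interval studied here. Late timing was therefore not shared by all olfactory receptor genes.

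The vomeronasal Vmn1r and Vmn2r pheromone receptors had medians of 5.86 h (133 genes) and 6.71 h (68 genes), and the bitter taste receptors (Tas2r) were later still at 7.81 h (30 genes). Trace amine receptors (Taar), which are expressed in olfactory neurons in place of an olfactory receptor, were at 4.9 h (15 genes). The Ms4a family, membrane proteins of necklace olfactory neurons and immune cells, was at 4.55 h (18 genes). Regulators of receptor choice and of its heterochromatin had a median of 0.96 h over 11 genes. Lhx2 was at 2.22 h, Ldb1 at 1.75 h, the histone demethylase gene Kdm1a at 0.217 h and the lamin B receptor gene Lbr at 1.77 h. Ebf1, at 5.27 h, was the latest of them. All of these lists lie across different chromosomes and numbers of bins, and their order was not tested.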

How the data were processed

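Single S-phase nuclei were sorted into plates, whole genome amplified and sequenced. Per the study's methods, the authors aligned reads to mm10 with Bowtie 2, dropped low-quality and duplicate reads, counted them per 50 kb window relative to each cell's total, divided them by G1 and G2 controls and masked extreme windows. Aneuploid chromosomes were rescaled. The submitters' processing notes also name SAMtools and bedtools, with no versions. The deposited smoothed score of each cell was centred, scaled to its interquartile range and median smoothed over 15 windows by the authors, and has no fixed unit. The deposited binarized state (0 or 1) came from segmentation and a threshold chosen for each cell, and homologues differ only where parsed reads passed the authors' limits for 129 and Castaneus, which were unequal. Mappability masks and sparse variant reads bear on clusters of similar genes. Another 24 columns of 8 cells matched no label and were not used.

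S-phase progress was the percentage of used autosomal bins outside the intervals that were replicated, homologues averaged. Schedules, deviations, T_width and line differences were computed with Python 3.11.15, NumPy 2.4.6, pandas 2.3.3 and SciPy 1.17.1, figures were drawn with matplotlib 3.10.9, and the functions were tested on simulated data. T_width used time intervals of 0.1 h with at least 100 values, or 20 for a single interval. Genes were from GENCODE M21 (GRCm38, the mm10 build), and GC and repeats from the mm10 reference. The genes named were those of the earliest and latest bin of each interval, 9 widely studied receptors and the families listed. Members and lists were chosen with earlier results of these data known. Read numbers per cell are not in these values, so no interval for counting error is given. The 3 most alike pairs of cells differed in at least 7.32% of states, and no pair was merged. Alternatives covered bins, states, schedules, centring, cells, plate rows and each interval left out.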

Additional observations from a re-analysis of the deposited data

How the results depend on the processing

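Results were recomputed under 34 settings. Of 143 values other than counts, 124 stayed within 1.5 times the reported value and 19 did not. T_width of the receptor bins moved from 2.01 h to 2.61 h with smoothed scores above 0 as states and to 2.67 h with the schedule of the other line. With chromosomes centred, the line difference in score moved from 0.155 to 0.00767, and 2 members rather than 0 passed 0.5 with diploid cells higher. In cells with 40% to 60% replicated, 4 members passed 0.5 with haploid cells higher. At a limit of 0.3, 65 and 5 members passed, where a lower limit takes in more bins by construction. The haploid deviation at the same scheduled time moved from 5.58 points to 1.73 with smoothed scores above 0 as states, 3.32 with a schedule from binarized states and 9.51 with the schedule of the other line. The diploid deviation moved from -1.85 points to -4 with a schedule from binarized states, to -6.66 with that of the other line, and to -0.628 without chromosome 11. Haploid intervals in a single state moved from 47.9% to 28.8% with smoothed scores as states and to 29.2% in cells with 40% to 60% replicated. The haploid replicated share against other bins moved from -9.61 points to -17 and -16.2 under the same settings. The asynchrony difference changed sign, from -0.185 to 0.0482 points, without distal chromosome 2, which held no asynchronous bin. It was -0.105 points in cells with 40% to 60% replicated, -0.116 with intervals weighted equally, -0.282 over bins with a receptor gene, -0.294 without chromosome 9, -0.377 points without the diploid cell of well B7, and -0.364 points without diploid plate row H. The alternatives without well B7 and without row H were chosen after seeing the data. The cause of the other changes was not tested. Leaving out each interval moved the replicated share against other autosomal bins between -13.3 points (without chromosome 7) and -3.56 points (without distal chromosome 2) in haploid cells and between -27.4 and -17.5 points in diploid cells. No paired analysis was possible because the replicate numbers are plate wells, which pair no cells across lines. Depth limits the calls of asynchrony, since segments with few parsed reads carry 1 state by default.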
